A study of Mus musculus with 15 samples.

Results

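The receptor subunit genes for glutamate and for the GABA-A receptor were examined in E18 dorsal forebrain. They were taken by symbol as the protein-coding genes of the AMPA (Gria), NMDA (Grin1, Grin2a to Grin2d, Grin3a, Grin3b), kainate (Grik), delta (Grid), metabotropic glutamate (Grm) and GABA-A (Gabr) families. There were 45 such genes among the 53337 genes of the table, with 4 AMPA, 7 NMDA, 5 kainate, 2 delta, 8 metabotropic and 19 GABA-A members. The rule used symbols and no measured value, though earlier results of these data were known when it was set. Single values are given for 40 of the 45, and counts and medians over the members cover all of them.

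The mice were C57BL/6J at embryonic day 18. Their dams had carried osmotic minipumps releasing arginine vasopressin (AVP) or vehicle (saline) under the skin through pregnancy, which is a model of preeclampsia. mRNA libraries came from the dorsal forebrain of 8 males, 4 per treatment, and of 7 females, 3 with AVP and 4 with saline. The brains of a group came from separate litters, per the study's methods, but males and females of a treatment shared litters. The labels do not say which, so the fits that use both sexes below treat all libraries as independent. Levels are given as TPM, a transcript's share of its library after correction for length, and genes can therefore be compared with each other on this scale. Depth cannot be recovered from TPM, and no counting interval can be given.

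Glutamate opens cation channels built from AMPA, NMDA or kainate subunits, and it also acts through G-protein-coupled metabotropic receptors. GABA opens chloride channels that usually combine alpha, beta and gamma subunits. Which subunits are made sets the speed and duration of a receptor's current, and the mix is known to shift between fetal and adult cortex, for example from GluN2B (Grin2b) towards GluN2A (Grin2a).

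The tissue label was checked against marker genes. Cortical plate neuron markers had a mean log2(TPM + 0.5) between 6.69 and 7.11 in each of the 15 libraries, and no marker of the 14 lists was at 0 throughout a group. Other tissue varied between libraries of the same group. Summed striatal neuron markers lay between 22.3 and 164.6 TPM within the AVP males. Ttr, which choroid plexus makes in quantity, lay between 1.54 and 2197 TPM, and the summed red blood cell markers lay between 1604 and 9950 TPM. The library labelled saline male 3 held Xist at 265.7 TPM, against 173.7 to 294.5 TPM in the 7 female libraries and at most 1.13 TPM in the other male libraries. It was analysed under its label. In males, the flip shares of Gria1 and Gria4, the Gria2 coding share and the members named are also given without it. So are counts over the members in the fits that include males. The other values include it.

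The alternative exons of the AMPA subunits are shown first, because the mix of variants is part of the fetal composition described here. Each AMPA gene has 2 alternative exons of 115 bases, flop and flip, and a receptor message normally carries one of them. Some annotated models hold both or neither. The non-coding Gria2 model with both was at 19.1 to 31.7 TPM in saline libraries, and a coding Gria4 model with neither was at 5.28 to 9.27 TPM. The shares below count coding models with exactly 1 of the exons. They code for part of the extracellular domain, and flip channels desensitise more slowly. The sequences below are from GENCODE M21 transcripts on GRCm38, with the bases that differ between the exons of a gene in capitals (36 in Gria1 and 36 in Gria2). The Gria1 exons lie at chr11:57309769-57309883 (flop) and chr11:57310608-57310722 (flip) on the plus strand. The Gria2 exons lie at chr3:80691320-80691434 (flop) and chr3:80690404-80690518 (flip) on the minus strand.
Gria1 flop: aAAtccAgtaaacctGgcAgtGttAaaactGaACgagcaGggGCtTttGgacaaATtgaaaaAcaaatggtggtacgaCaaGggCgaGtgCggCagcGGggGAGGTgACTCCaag
Gria1 flip: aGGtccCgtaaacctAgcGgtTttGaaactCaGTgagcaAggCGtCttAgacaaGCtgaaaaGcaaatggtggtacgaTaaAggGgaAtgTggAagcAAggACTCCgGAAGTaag
Gria2 flop: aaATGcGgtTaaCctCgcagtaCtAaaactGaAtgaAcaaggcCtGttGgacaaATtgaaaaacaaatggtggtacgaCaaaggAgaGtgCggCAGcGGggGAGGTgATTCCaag
Gria2 flip: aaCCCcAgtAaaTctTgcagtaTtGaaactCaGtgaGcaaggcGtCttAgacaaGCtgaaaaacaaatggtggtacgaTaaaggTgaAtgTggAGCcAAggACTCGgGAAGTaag

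Flip transcripts predominated in all 4 AMPA genes. In the 8 saline libraries, flip made up 87.1% ± 4.95 (SD) of the coding flip and flop transcripts of Gria1. The share was 75.8% ± 2.11 for Gria2, 75.4% ± 5.05 for Gria4 and 99.9% ± 0.16 for Gria3. It stayed above 60% in each of the 15 libraries for every gene, the lowest value being 60.2% for Gria4 in AVP male 3. The flip and flop models of Gria1 and Gria4 end in last exons of almost the same length (2802 and 2801 bases in the main Gria1 models). Those of Gria2 and Gria3 do not. The last exon has 920 bases in the flip model and 7265 in the flop model of Gria2, and 2262 bases in the flip model and 246 in the flop models of Gria3. The shares of these genes therefore also depend on how reads of the 3' end were assigned.

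Under AVP the flip share of Gria4 was 66.9% ± 5.34 in males, against 76.2% ± 7.02 in saline males. Single AVP males lay between 60.2% and 72.7% and saline males between 69.0% and 85.5%, so the groups overlapped. The overlap rested on saline male 3 (69.0%). Without it saline males averaged 78.6% ± 6.27 (n = 3), with a lowest value of 73.3%, and the groups did not overlap. In females the shares were 69.5% ± 3.93 and 74.6% ± 2.90, with overlap again. The shares of Gria1 were 88.0% ± 3.44 with AVP and 89.95% ± 1.72 with saline in males, and 88.6% ± 3.97 and 84.3% ± 5.73 in females. Without saline male 3 the Gria1 share in saline males was 89.4% ± 1.63. These transcript shares are given as a description, with no test.

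Gria2, the subunit that keeps AMPA channels from passing calcium once its RNA is edited, was the most abundant of all the members. Its level in saline libraries was 207.3 ± 36.1 TPM (SD, n = 8), or 69.3% ± 4.38 of the summed AMPA subunits. Gria1 followed at 46.1 ± 5.42 TPM. Gria4 (22.7 ± 2.30 TPM) and Gria3 (21.6 ± 2.52 TPM) did not differ beyond their spread. The plot of levels shows 40 of the members in each library.

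**Figure D1:**
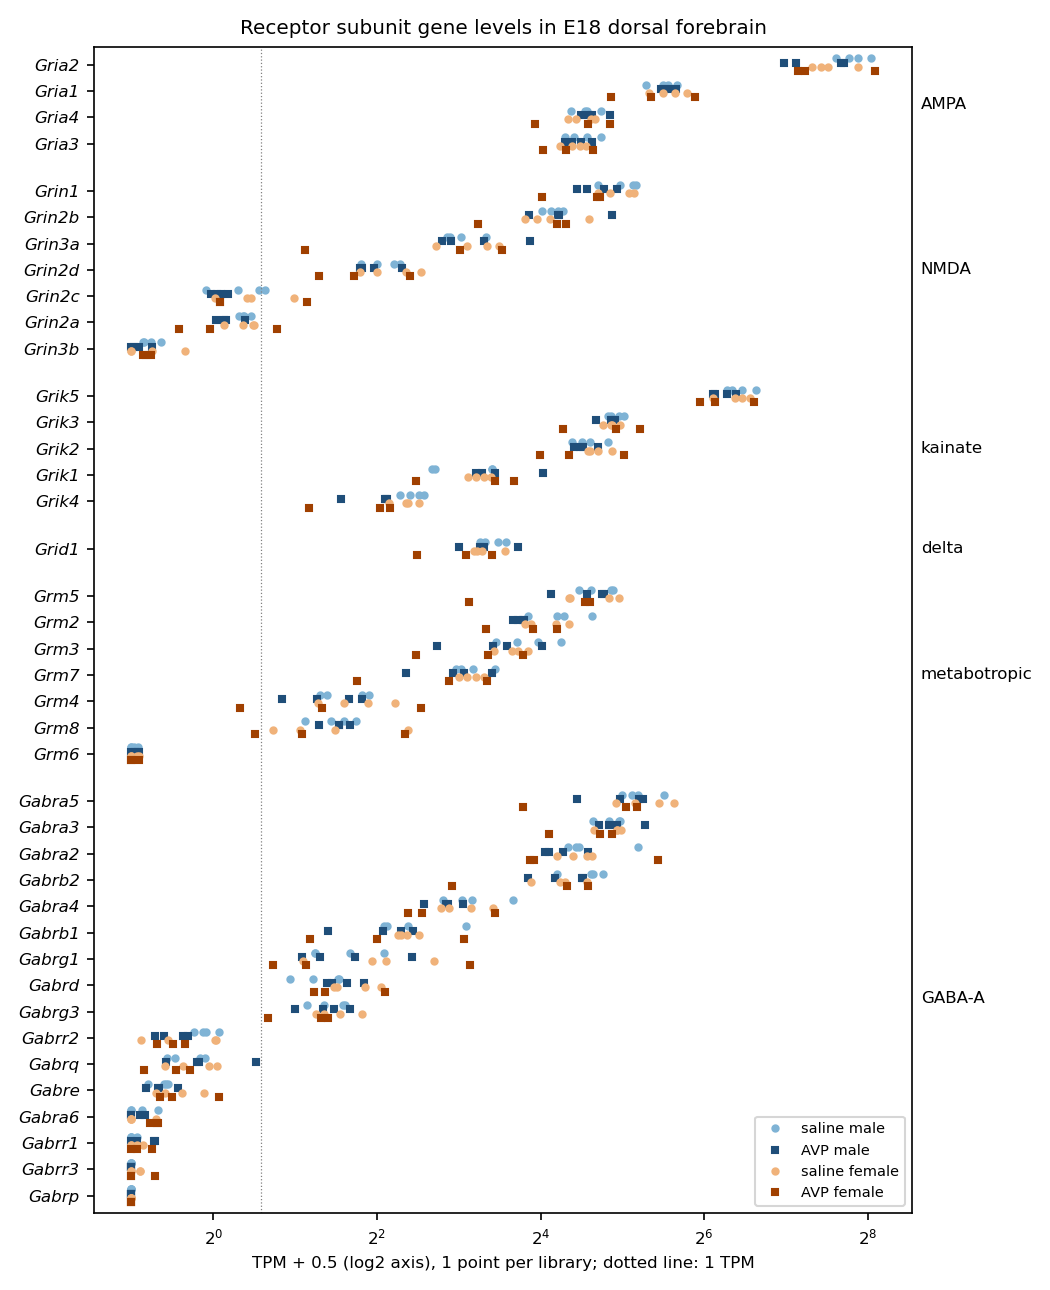
Level of 40 of the 45 subunit genes as TPM + 0.5 on a log2 axis, with 1 point per library, blue for males, orange for females, circles for saline and squares for AVP; the dotted line marks 1 TPM. Gria2 lies highest, at 125.4 to 272.2 TPM, and 11 genes lie mostly to the left of the line.

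In the NMDA family the obligatory subunit Grin1 was highest, at 31.0 ± 4.09 TPM in saline libraries. Grin2b was next at 17.3 ± 3.09 TPM, followed by Grin3a, which dampens calcium entry, at 8.19 ± 1.65 TPM and Grin2d at 3.93 ± 0.83 TPM. Their ranges in the saline libraries did not touch (25.5 to 35.4, 13.5 to 23.7, 6.10 to 10.7 and 2.98 to 5.31 TPM). Grin2c (0.86 ± 0.33 TPM) and Grin2a (0.80 ± 0.10 TPM) overlapped below them, and Grin3b was at most 0.28 TPM.

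Grin2b therefore made up 75.3% ± 5.35 of the GluN2 sum in saline libraries, Grin2d 17.4% ± 4.08, Grin2c 3.85% ± 1.52 and Grin2a 3.49% ± 0.29. The TPM of Grin2b was 16.7 to 25.8 times that of Grin2a in the saline libraries, with a median of 21.6. Over all 15 libraries the ratio was 15.9 to 37.9.

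Grin1 itself is spliced. Its N1 cassette, which changes the receptor's response to protons and polyamines, is an exon of 63 bases at chr2:25311343-25311405 on the minus strand.
Grin1 N1 exon: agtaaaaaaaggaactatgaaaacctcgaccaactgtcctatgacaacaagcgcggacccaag
Transcripts with this exon took 9.23% ± 2.90 of the coding Grin1 TPM in saline libraries. Transcripts with the C1 cassette near the 3' end, an exon of 111 bases that carries an endoplasmic reticulum retention signal, took 75.1% ± 5.21. The N1 share ranged from 1.25% to 22.8% over the 3 AVP females, wider than the 5.92% to 13.3% over the saline libraries.

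Among the kainate receptors, Grik5 was by far the highest, at 84.6 ± 9.64 TPM. Grik5 codes for a high-affinity subunit that forms channels only together with Grik1, Grik2 or Grik3 products. Grik3 (29.3 ± 1.76 TPM) and Grik2 (24.5 ± 2.82 TPM) overlapped, and Grik1 (8.56 ± 1.73 TPM) and Grik4 (4.79 ± 0.51 TPM) were lower. Of the delta receptors, which act mainly as synaptic organisers, Grid1 stood at 9.83 ± 1.15 TPM. Grik5 held 55.6% ± 3.73 of the summed kainate subunits, Grik3 19.4% ± 1.42 and Grik2 16.2% ± 2.05.

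Of the metabotropic receptors given here, Grm5, which couples to phospholipase C, was the highest at 25.2 ± 4.36 TPM. The cyclase-inhibiting receptors Grm2 (17.6 ± 3.66 TPM) and Grm3 (13.2 ± 2.67 TPM) followed, and then Grm7 (8.45 ± 1.05 TPM), with each neighbour in this order overlapping the next. Grm4 (2.78 ± 0.78 TPM) and Grm8 (2.38 ± 1.09 TPM) were lower and overlapped. Grm6, known from retinal bipolar cells, was at most 0.03 TPM.

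Of the GABA-A alpha subunits given here, Gabra5 was highest at 38.0 ± 6.89 TPM, followed by Gabra3 (28.8 ± 2.77 TPM), Gabra2 (23.1 ± 5.604 TPM) and Gabra4 (8.33 ± 1.98 TPM). Gabra5, Gabra3 and Gabra2 overlapped their neighbours, whereas the highest Gabra4 library (12.1 TPM) lay below the lowest Gabra2 library (17.8 TPM). Gabra5 held 34.8% ± 3.95 of the sum of the alpha genes, Gabra3 26.5% ± 2.10 and Gabra2 21.2% ± 4.36. Gabra6, a cerebellar granule cell subunit, averaged 0.04 TPM. Among the beta and gamma genes, Gabrb2 stood at 20.99 ± 4.21 TPM, Gabrb1 at 4.86 ± 1.35 TPM, Gabrg1 at 3.12 ± 1.46 TPM and Gabrg3 at 2.28 ± 0.43 TPM. Gabrd, found in extrasynaptic receptors, was at 2.43 ± 0.70 TPM.

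**Figure D2:**
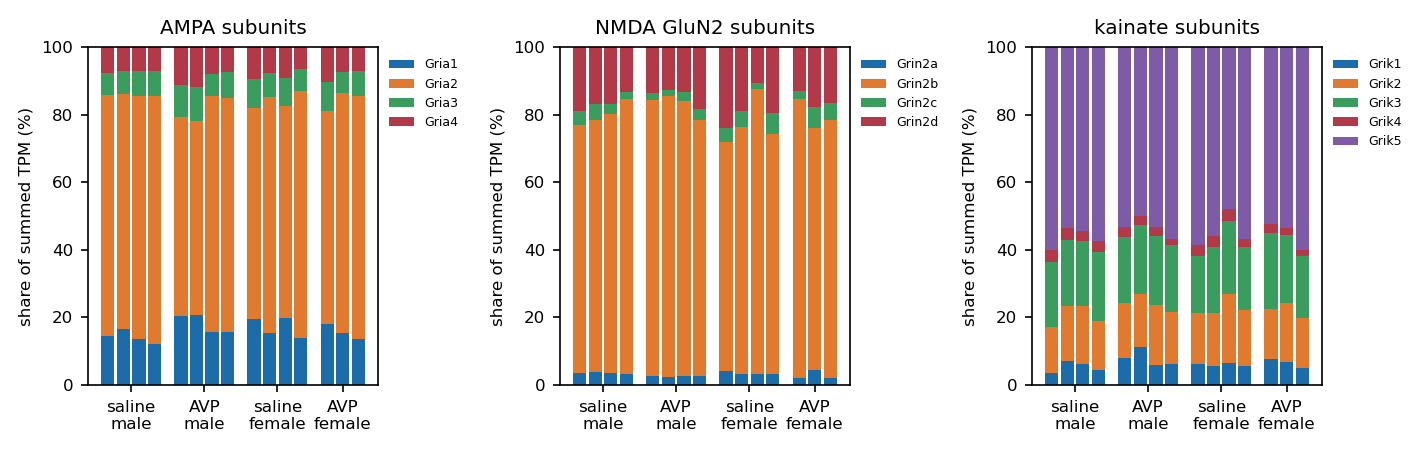
Share of each subunit gene in the summed TPM of its subunit class (%), with 1 bar per library in the 4 groups, for AMPA, GluN2 and kainate subunits. Gria2, Grin2b and Grik5 take the largest share of their class in every library, and Grin2a takes at most 4.51% of the GluN2 sum.

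Most GABA-A genes sit in clusters, and levels within a cluster were unequal. On the X chromosome (GRCm38), Gabra3 (X:72432681-72656848) stood at 28.8 TPM, and its neighbours Gabre and Gabrq averaged 0.19 and 0.33 TPM. In the annotation Gabra4 and Gabrb1 overlap on opposite strands on chromosome 5, and Gabra5 also overlaps a gene on the other strand. The quantification was stranded, per the study's methods, so reads of the overlapping genes were assigned by strand.

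Genes entered a test if 50% or more of the libraries compared reached 1 TPM, and 34 of the 45 members did so in each comparison. The 11 others were Grin2a, Grin2c, Grin3b, Grm6, Gabra6, Gabre, Gabrp, Gabrq, Gabrr1, Gabrr2 and Gabrr3. Gabrp was listed at 0 in all 15 libraries, and Gabrr3 in 12 of them.

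The first question was whether maternal AVP changed these levels in males. With limma, 0 of 34 members passed an adjusted p of 0.05 (lowest adjusted p 0.304), and of all 15271 genes tested 1 passed (0.00655%). At an unadjusted p under 0.05 there were 4 members, all lower with AVP, or 11.8%, near the background of 13.5% of all genes (2057). The 4 were Grm2, Grik4, Gria2 and Grin1.

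With AVP, the 4 males had Grm2 levels of 13.4, 13.3, 12.7 and 12.2 TPM. Saline males had 24.3, 13.9, 18.98 and 17.9 TPM. The groups did not overlap, though the lowest saline male was close to the AVP males. The log2 fold change was -0.50 ± 0.15 (SE), with an adjusted p of 0.304 in limma.

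Grik4, a high-affinity kainate subunit, measured 3.83, 3.78, 3.84 and 2.45 TPM in AVP males. Saline males measured 5.48, 5.24, 4.79 and 4.36 TPM, again without overlap. The log2 fold change was -0.47 ± 0.16 in limma (adjusted p = 0.31). Separated groups were found for these 2 of the 34 members and for 7.27% of all genes tested.

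Gria2 split the AVP males into a pair at 125.4 and 139.2 TPM (replicates 1 and 2) and a pair at 208.3 and 202.8 TPM. Saline males held it at 218.1, 194.2, 262.4 and 235.2 TPM, and the groups overlapped. The pairs carry library numbers from different runs of numbers (1 to 8 and 13 to 20), and the saline males divide in the same way. The labels do not say whether these number runs were separate batches. Within each number run the AVP males lay below the saline males. Their mean was 132.3 against 206.2 TPM in the lower numbers and 205.5 against 248.8 TPM in the higher (log2 differences -0.64 and -0.27). How many of all genes separated within the runs was not counted, and 73.6% of all genes were lower in AVP males. In females the log2 differences of Gria2 were -0.27 and 0.01, the first with 1 AVP library. Over all 8 males the log2 fold change of Gria2 was -0.46 ± 0.18 in limma (adjusted p = 0.33). With the number run as a covariate it was -0.46 ± 0.09 in limma (adjusted p = 0.214). Grin1 measured 26.9, 30.0, 23.1 and 21.4 TPM with AVP and 35.4, 25.5, 30.8 and 34.4 TPM with saline, with overlap. Its log2 fold change was -0.31 ± 0.14 in limma (adjusted p = 0.37). Within the number runs the log2 differences of Grin1 were -0.08 and -0.54, those of Grm2 -0.45 and -0.55 and those of Grik4 -0.44 and -0.50.

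Without saline male 3, the fold changes were -0.48 for Grm2, -0.49 for Grik4, -0.38 for Gria2 and -0.32 for Grin1. Of these, Grm2 and Grik4 kept an unadjusted p under 0.05 in limma, and no member passed adjustment (lowest adjusted p 0.612). Beside these 2 members, 1225 of 15051 genes had an unadjusted p under 0.05 without saline male 3. The number of members with an unadjusted p under 0.05 was also 2 without AVP male 1 (1233 of 15169 genes) or saline male 4 (1878 of 15103). Without saline male 2 it was 7, beside 1967 of 15058 genes.

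In males the Gria2 difference was also seen in the TPM assigned to models that code for no protein. The values below depend on how reads were divided among the 8 Gria2 models, which was not checked. The non-coding Gria2 models, with retained introns or subject to nonsense-mediated decay, summed to 58.0 ± 15.8 TPM in AVP males and 91.7 ± 10.5 TPM in saline males. The coding models summed to 110.9 ± 27.2 and 135.8 ± 18.3 TPM. The coding share was 64.0% to 66.4% in AVP males and 58.8% to 60.3% in saline males, also without saline male 3. These did not overlap, whereas in females they did, at 58.6% to 65.7% with AVP and 61.0% to 68.0% with saline. The AVP males lay within the range of the saline females. These shares were not tested. With coding transcripts alone, an alternative chosen after seeing the data, the log2 fold change of Gria2 in males was -0.31 ± 0.16 in limma (adjusted p = 0.48).

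**Figure D3:**
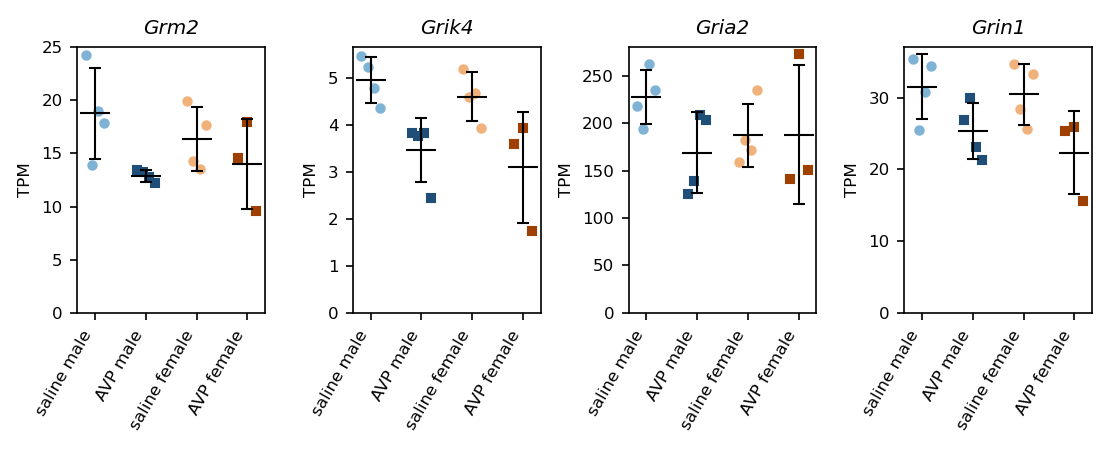
TPM of Grm2, Grik4, Gria2 and Grin1 by group, with 1 point per library and the group mean with its SD in black. AVP males lie below all saline males for Grm2 and Grik4 and overlap them for Gria2 and Grin1.

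By family, 2 of 4 AMPA, 2 of 4 NMDA, 4 of 5 kainate, 5 of 7 metabotropic and 8 of 12 GABA-A members tested had a lower mean with AVP in males, counts that became 1, 2, 2, 5 and 6 after median-of-ratios scaling. The largest change in the other direction was that of Grik1, at 0.44 ± 0.24 (adjusted p = 0.438 in limma). The median log2 fold change of the 34 members was -0.09, against -0.10 for all genes tested. Of all genes, 73.6% were lower with AVP, and 49.4% after median-of-ratios scaling. This general shift depends on scaling. After median-of-ratios scaling the median of all genes was 0.00 and 16 of 34 members were lower, compared with 23 of 34 before, and of 3 members with an unadjusted p under 0.05, 2 were then higher. Of the 4 members named, Grm2 kept an unadjusted p under 0.05 after that scaling (-0.39), whereas Grik4 (-0.37), Gria2 and Grin1 did not. After quantile normalization 15 of 34 were lower, beside 45.0% of all genes. Without saline male 3 and with no such scaling, 20 of 34 were lower. The median of members was then -0.07, against -0.08 for all genes.

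In females, 0 of 34 members passed (lowest adjusted p 0.999 in limma), and 0 of 15132 genes did (0%). A single member, Grin1, had an unadjusted p under 0.05, or 2.94% of members against 4.51% of all genes (683). Grin1 measured 25.3, 26.0 and 15.7 TPM in AVP females and 34.7, 28.4, 25.6 and 33.3 TPM in saline females, with overlap. No member separated the groups, against 5.55% of all genes. The log2 fold change of Grin1 was -0.47 ± 0.20 in limma (adjusted p = 0.999). The number of members with an unadjusted p under 0.05 was 0 without saline female 1, 2 or 4 or AVP female 3. Of all genes, 433 of 15444, 582 of 15425, 496 of 15411 and 526 of 15489 then did. The number of members was 2 without AVP female 1, beside 1014 of 15413 genes.

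All 34 members had a lower mean in AVP females, beside 63.1% of all genes. The count was 32 after quantile normalization (51.9% of all genes) and 33 with coding transcripts only. The median log2 fold change of members was -0.29 against -0.05 for all genes. This shift of the members rested on 1 library. AVP female 3 was the lowest of the 15 libraries for 31 of the 34 members and lay below every saline library for 33 of them. Grm5 was at 8.22 TPM in it and at 23.9 and 22.9 TPM in the other AVP females. Gabra5 was at 13.3, against 32.4 and 35.8 TPM, and Grin3a at 1.67, against 7.62 and 11.01 TPM. Without AVP female 3, 17 of 34 members were lower, beside 43.7% of all genes, and the median of members was 0.00.

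AVP female 2 stood at the other end, with the highest value of all libraries for 11 members, among them Gabra2 (43.0 TPM), Gabrg1 (8.31 TPM) and Gria2 (272.2 TPM). Without it, 17 members had an unadjusted p under 0.05 in females, all lower, beside 1605 of all 15308 genes (1314 of them lower). The lowest adjusted p of a member was then 0.472 in limma. The within-group SD of members, on the log2 scale, had a median of 0.34, against 0.21 for all genes tested.

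Other markers moved with these libraries. AVP female 3 had the highest summed red blood cell markers (9950 TPM) and the lowest interneuron markers (mean log2 4.62), with Ttr at 1348 TPM. Its cortical plate neuron markers were at 6.88, the same mean log2 as in AVP female 2. Their sum was 1164 TPM, against 1078 and 996.2 TPM in AVP females 1 and 2. Some single neuronal genes were low in AVP female 3 and others were not. Rbfox3, which codes for the neuronal nuclear protein NeuN, was at 31.5 TPM (45.4 to 65.8 TPM in the others), and Slc17a7, a vesicular glutamate transporter, was at 14.2 TPM (21.98 to 66.2 TPM in the others, with AVP female 2 highest). Both were chosen after their values were seen. Neurod6, one of the cortical plate neuron markers, was at 662.4 TPM in AVP female 3 (470.8 to 728.2 TPM in the others). Of the 14 marker lists, 4 separated all AVP females from all saline females. Mean log2 was higher with AVP for meningeal fibroblasts (4.34 to 4.79 against 3.63 to 3.97) and endothelium (4.76 to 4.81 against 3.86 to 4.51). It was also higher for midbrain (0.17 to 0.63 against -0.62 to 0.11). The midbrain markers were near the floor, with sums of 3.61 to 7.04 TPM against 0.51 to 2.85 TPM. They were highest in AVP female 1, which also had the highest Ttr (2197 TPM). Mean log2 was lower with AVP for oligodendrocyte precursors (2.92 to 3.47 against 3.53 to 4.02). AVP female 3 was the lowest library for the oligodendrocyte precursor markers. AVP male 4, which lay below every saline library for 20 members, had the second highest red blood cell sum (7325 TPM). The part of any of these markers in the result was not tested. In whole tissue, fewer cells of a type and less RNA per cell cannot be told apart.

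**Figure D4:**
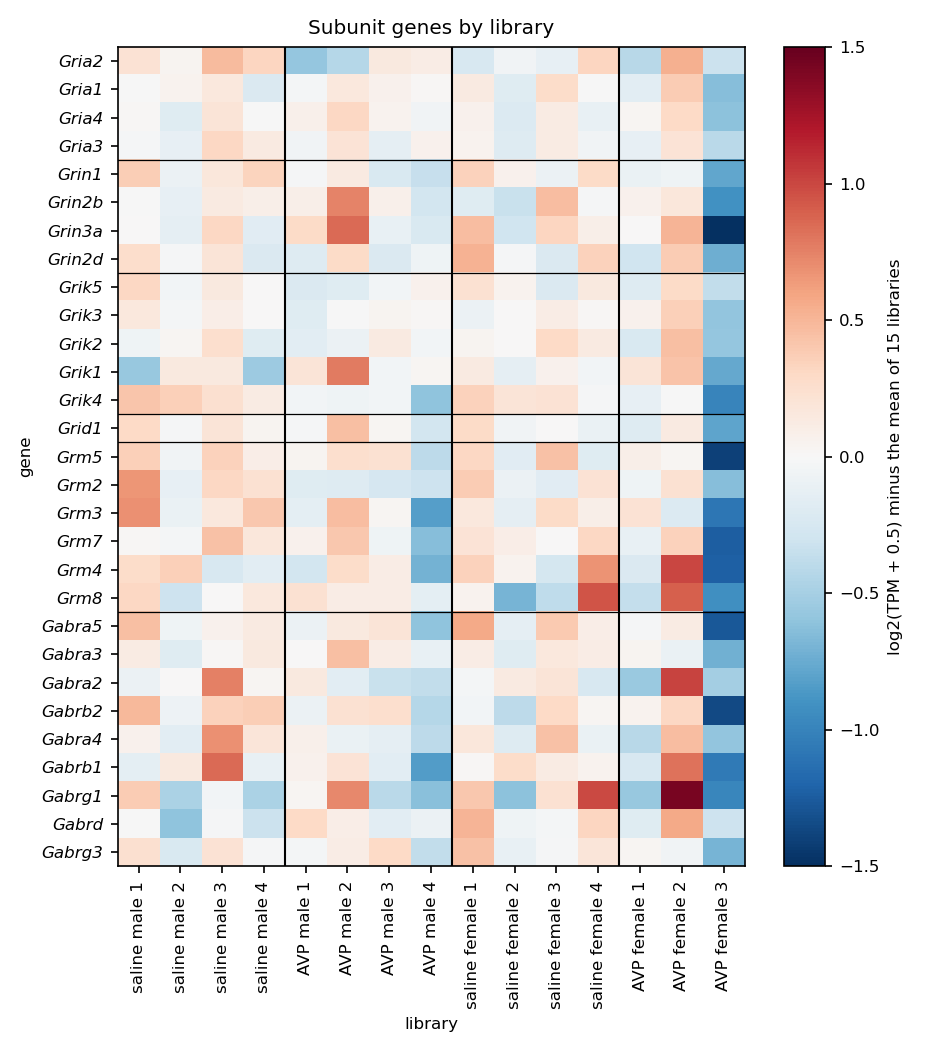
Log2(TPM + 0.5) of 29 of the 34 members that passed the filter (rows, grouped by family) in each library (columns), as the difference from the gene's mean over the 15 libraries; blue is lower and red higher. The column of AVP female 3 is blue throughout, and it holds the lowest value for 26 of the 29 genes drawn.

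Over both sexes, with sex as a term, 0 of 34 members passed (lowest adjusted p 0.462 in limma), and 0 of 15078 genes (0%). The members with an unadjusted p under 0.05 were Grik4, Grin1 and Grm2, or 8.82% against 10.4% of all genes (1564). Grik4 had a log2 fold change of -0.51 ± 0.15, Grin1 of -0.38 ± 0.12 and Grm2 of -0.38 ± 0.14, each with an adjusted p of 0.462 in limma. All 3 kept an unadjusted p under 0.05 in each alternative that could be computed, including those without AVP female 3 (Grik4 -0.38, Grin1 -0.28, Grm2 -0.30). Without AVP female 2, 12 members had an unadjusted p under 0.05, beside 3638 of all 15151 genes. The lowest adjusted p of a member was then 0.0592 in limma, for Grik4. The number of such members was 6 without saline male 2, beside 1731 of 15167 genes. It was 5 without AVP male 2, AVP female 1 or saline female 2, beside 1386 of 15197, 1357 of 15200 and 1394 of 15172 genes. Without saline male 3 it was 3, beside 1112 of 15164 genes.

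Whether the AVP effect differed by sex was tested as an interaction. No member passed in limma (lowest adjusted p 0.896), none had an unadjusted p under 0.05, and of 15078 genes 0 passed (0%) and 624 (4.14%) had an unadjusted p under 0.05. The largest difference was that of Grin3a, with a female minus male log2 fold change of -0.80 ± 0.59 (adjusted p = 0.896 in limma). Without AVP female 2, 4 members had an unadjusted p under 0.05, beside 583 of 15151 genes. The number of such members was 1 without AVP female 1 or AVP female 3, beside 1047 of 15200 and 1216 of 15205 genes. It was 0 without saline male 3, beside 440 of 15164 genes. The plot of fold changes shows both sexes side by side.

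**Figure D5:**
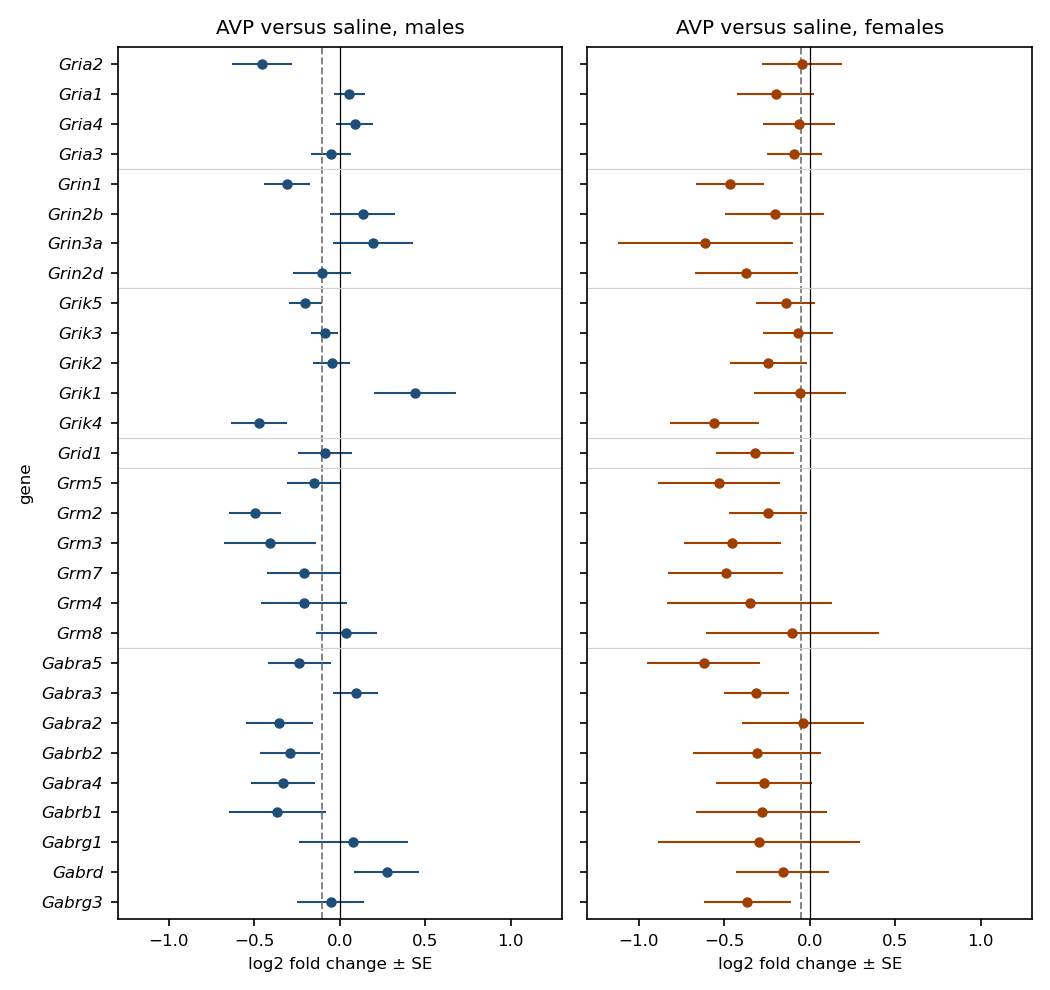
Log2 fold change, AVP over saline, with its SE for 29 of the 34 members tested, in males (left) and females (right); the dashed line is the median of all genes tested. Values in males lie on both sides of 0, and all 29 drawn in females lie below it (27 after quantile normalization, which is not drawn).

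Subunit ratios answer whether AVP moved the mix rather than the amount. There were 6 ratios in each sex, 12 tests in all, and 0 had an exact two-sided permutation p under 0.05. Values are given for 3 of the 6. The smallest p the design allows is 0.0286. Grin2b to Grin2a came nearest, in males. The TPM ratio was 27.04 to 35.8 in AVP males and 19.8 to 24.4 in saline males, which did not overlap. On the log2(TPM + 0.5) scale the means were 4.12 ± 0.27 and 3.78 ± 0.11, a difference of 0.34 with an exact permutation p of 0.0571. Grin2a itself was at 0.52 to 0.81 TPM in AVP males and 0.74 to 0.88 TPM in saline males, so the added 0.5 weighs on it. With 0.1 added instead the difference was 0.44 and the exact permutation p 0.0286, the smallest possible. Over all alternatives the exact permutation p ranged from 0.0286 to 0.114. In females the difference was 0.06 (exact permutation p = 0.743).

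For Gria2 to Gria1, AVP males averaged 1.81 ± 0.38 and saline males 2.32 ± 0.23 on the log2 scale, a difference of -0.51 (exact permutation p = 0.0857). Females differed by 0.15 in the other direction (exact permutation p = 0.629). Grin2b to Grin2d differed by 0.24 in males and 0.16 in females (exact permutation p = 0.314 and 0.686).

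Genes that work with the receptors were taken from 6 lists with 39 genes, covering AMPA and kainate auxiliary subunits, glutamate scaffolds, GABA-A scaffolds and partners, transmitter supply and metabotropic GABA receptors. All 39 passed the filter, and 0 passed adjustment in any comparison. In males 4 had an unadjusted p under 0.05, all lower, beside 13.5% of all genes. They were Shisa7, an auxiliary protein of the GABA-A receptor (-0.60 ± 0.12, adjusted p = 0.304 in limma), Shisa9, Shank1 and Shank2. After median-of-ratios scaling or quantile normalization 2 of the 39 had an unadjusted p under 0.05, 1 higher and 1 lower. Of all genes, 1758 of 15275 and 1528 of 15271 then did. All 12 glutamate scaffold genes had a lower mean in AVP males, beside 73.6% of all genes (median -0.22, against -0.10). Before scaling 2 of them had an unadjusted p under 0.05. After median-of-ratios scaling or quantile normalization 10 of the 12 had a lower mean, beside 49.4% and 45.0% of all genes. None of the 12 then had an unadjusted p under 0.05. In females none of the 39 had an unadjusted p under 0.05, and 36 had a lower mean, beside 63.1% of all genes. The 36 became 34 after median-of-ratios scaling (56.2% of all genes) and 31 after quantile normalization (51.9%).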

How the data were processed

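Stranded mRNA libraries of E18 dorsal forebrain were compared by treatment within sex. Per the labels and methods, the authors trimmed reads with Trim Galore 0.4.1, checked them with FastQC 0.5.2, and quantified GENCODE M16 transcripts (GRCm38) with kallisto 0.43.1 in a stranded mode. They left out a further AVP female for high variance. The deposited table holds TPM as the authors made them, 1 value per transcript and library (133849 transcripts, 15 libraries). TPM keep no depth, so precision rests on the replicate libraries.

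TPM were summed to genes with GENCODE M21 (404 transcripts, at most 0.2% of a library's TPM, had no gene there). Genes that reached 1 TPM in 50% or more of the libraries compared entered limma 3.58.1 (R 4.3.3) on the log2(TPM + 0.5) scale, with a mean-variance trend, Benjamini-Hochberg adjustment over all genes and a threshold of 0.05. A fold change on this scale understates that of low genes. Males, females, both sexes with sex as a term, and the interaction were fitted. Log2 ratios of 6 subunit pairs had an exact two-sided permutation test over libraries. Flip and flop exons were told apart by their codons and order. Members and lists were chosen with earlier results of these data known.

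Members were described by level. Those described in full were any with an adjusted p under 0.05, and otherwise up to 8 per comparison with the smallest unadjusted p under 0.05. Single values of 5 members, and the ratios that use them, are not reported here. Library values were also fixed for 14 principal subunits, of which those the results turn on are printed. Grik1, Grin3a and the members named for AVP females 2 and 3 were chosen after their values were seen.

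On simulated data, limma recovered 96.5% of genes given a log2 change of 2 in males and 92% in females, and 74.5% and 60.5% of those given a change of 1. Noise was drawn independently for each gene, and the changed genes were drawn at random. Members varied more within groups (median SD 0.34 against 0.21) and moved together in some libraries, so these rates need not hold for them. No change between 0 and 1 was simulated. Alternatives were pseudocounts of 0.1 and 1, no filter, at least 5 TPM in every library, quantile normalization, median-of-ratios scaling, no trend, the run of library numbers as a covariate, 1 fit of all 15 libraries, leaving out each library and, added after seeing the data, protein-coding transcripts only. Figures were drawn with matplotlib 3.10.9.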

Additional observations from a re-analysis of the deposited data

Results flagged for a closer look

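Within the groups of 4 libraries, 9 values among 66 sets of 4 lay apart from the other 3 libraries by Dixon's criterion. Chance gives this in about 1 of 20 independent sets, or 3.3 of 66. The sets share their libraries and are not independent, so the 2 counts cannot be compared strictly. AVP male 4 held Grik4 at 2.45 TPM (others 3.78 to 3.84). The library labelled saline male 3 held Gabra2 at 36.0 TPM (others 19.8 to 21.6). Saline female 2 held Gabra3 at 24.6 TPM (others 30.2 to 31.2). Among splice forms, saline female 4 had a flip share of 75.8% for Gria1 (others 86.0% to 87.9%), a flip share of 70.3% for Gria4 (others 75.8% to 76.3%) and a C1 share of 84.1% for Grin1 (others 71.3% to 73.3%). The flip share of Gria2 was 73.5% in saline female 2 (others 75.6% to 75.9%). For Gria3, where the other libraries of the group were at 100%, it was 98.4% in AVP male 2 and 99.6% in saline male 2. With the others at 100%, any lower value is flagged. No member tested was higher in every AVP library of one sex and lower in every AVP library of the other.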

How the results depend on the processing

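No paired analysis was possible because the labels give no replicate numbers or litters that groups share. Depth cannot be read from TPM, so the limits here are the 3 or 4 libraries in a group. No member passed an adjusted p of 0.05 in any comparison under any alternative. Of all genes tested, the number that passed in males was 1, and it was 0 with a pseudocount of 1, with at least 5 TPM in every library, with the library-number run, in 1 fit of all 15 libraries or with protein-coding transcripts only, and 2 without the trend. It was 0 to 6 with a library left out, and the same range held in females, with 0 to 1 for the interaction and for both sexes. The number of members with an unadjusted p under 0.05 in males was 4, beside 2057 of all genes. It became 2 in 1 fit of all libraries (1454 genes) and was 2 to 7 with a library left out (1225 to 2960 genes). All 4 were lower with AVP. With quantile normalization 1 of 3 such members was higher, and with coding transcripts only 2 of 4 were higher. In females the number of members was 1, beside 683 genes. It became 2 with quantile normalization (728 genes), median-of-ratios scaling (826), 1 fit of all libraries (947) or coding transcripts only (730). It was 0 without the trend (737) or with the library-number run (591), and 0 to 17 with a library left out (433 to 1605). For the interaction it was 0, beside 624 genes, and became 1 with quantile normalization (711 genes) or median-of-ratios scaling (870). With a library left out it was 0 to 4, beside 403 to 1216 genes. Over both sexes it was 3, beside 1564 genes, and became 5 with coding transcripts only (1206 genes). With a library left out it was 3 to 12, beside 936 to 3638 genes.

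The median log2 fold change of members minus all genes was 0.02 in males, -0.24 in females, -0.24 for the interaction and -0.12 over both sexes. With a library left out it ranged from -0.06 to 0.10, from -0.39 to -0.02, from -0.41 to -0.05 and from -0.18 to -0.04. The largest move in females was to -0.02, without AVP female 3. Between single libraries of a group, the median deviation of members minus that of all genes had an SD of 0.22. AVP female 3 (-0.60) enters that SD, which therefore does not measure how steady these values are. The fold changes of Grm2, Grik4, Gria2 and Grin1 named in males kept their sign under each alternative. For the ratio of Grin2b to Grin2a in males, the exact permutation p was under 0.05 in 3 alternatives. Among them were a pseudocount of 0.1 (difference 0.44) and coding transcripts only (0.38), each with an exact permutation p of 0.0286. The difference was 0.21 to 0.43 with a library left out. In females it was -0.0312 with a pseudocount of 1 and -0.16 to 0.19 with a library left out. Left-out libraries also turned the sign of Grin2b to Grin2d in females (-0.019 to 0.45). The cause was not tested.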
